A study of Mus musculus with 30 samples.

Results

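The genes described here encode the subunits of the mitochondrial respiratory chain and of the ATP synthase that are made from nuclear DNA. They were chosen by symbol alone, as probe sets with a single annotated symbol that begins with Nduf, Uqcr, Cox4i, Cox5, Cox6, Cox7, Cox8 or Atp5, or that is Sdha, Sdhb, Sdhc, Sdhd or Cyc1. Assembly factors named Ndufaf and pseudogenes were left out. The rule found 107 of 34760 probe sets, which stood for 83 of the 19937 genes measured. Each gene was read from its probe set with the highest mean over the 30 arrays. By complex there were 35 genes of complex I, 4 of complex II, 9 of complex III, 18 of complex IV and 17 of the ATP synthase. Ndufa4 bears a complex I name but is known as a subunit of complex IV and was counted there.

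The cells were an Eμ-Myc; Cdkn2a-/- lymphoma line from the strain C57BL/6J, grown in flasks with irradiated Cdkn2a-/- mouse embryonic fibroblasts. The Eμ enhancer drives the Myc transgene in B-lineage cells, and Cdkn2a is absent from the lymphoma cells of every group and from the feeder cells. Parental cells were sampled without drug (0 h, n = 5) and after 6 h (n = 4), 12 h (n = 4), 24 h (n = 5) and 48 h (n = 5) in 750 nM mafosfamide, a cyclophosphamide analog that alkylates DNA without first being activated by the liver. The resistant lines R100, R500, R1000 and R4000 came from successive steps of 1 dose escalation to 100, 500, 1000 and 4000 nM, so they are not independent derivations. Each line gave 1 untreated array, and R500, R1000 and R4000 each gave 1 array after 24 h in 750 nM mafosfamide. The parental arrays carry a replicate number from 1 to 5 in the description label, with no array numbered 1 at 6 h or 12 h. The label does not say what a number stands for, and p-values measure only the spread between these arrays of 1 lymphoma.

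Values are log2 expression, so 1 unit is a doubling of signal. Array medians over all probe sets lay between 7.28 and 7.44. The 0 h array numbered 5 stood apart, with an interquartile range over probe sets of 3.07 against 3.34 to 3.64 on the other arrays. Of the B-cell markers listed, 7 of 8 were measured, and the antigen receptor gene Cd79a lay between 13.23 and 13.62 on the parental arrays. Not all markers of the list were as steady. Ms4a1 ran from 6.88 to 12.41 on the parental arrays, and Ebf1 was called lower at 48 h (-0.37, limma adjusted p = 0.0211). T and NK cell markers lay between 4.87 and 7.58. Transcripts typical of fibroblasts moved with the drug: 9 of 20 listed genes were called higher at 24 h, against 867 of all 19937 genes. The mean of the list lay between 8.05 and 9.53 on the 24 h arrays against 7.83 to 8.34 at 0 h. Fewer cells of a type and less RNA per cell cannot be told apart on these arrays.

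Electrons from NADH enter the chain at complex I and those from succinate at complex II, and all pass through complex III and cytochrome c to oxygen at complex IV. The protons moved on the way drive the ATP synthase. Most subunits are encoded in the nucleus and imported into the mitochondrion, and Myc is known to raise the expression of many nuclear genes for mitochondrial proteins. Some subunits of complex IV also exist as tissue isoforms, such as Cox6a2 of heart and skeletal muscle.

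To determine whether the drug moved these genes in parental cells, each time was compared with 0 h in 1 limma fit of the 23 parental arrays. At 6 h, 12 h and 48 h none of the 83 genes passed the test at an adjusted p of 0.05, against 0.0201%, 0.512% and 0.251% of all genes. At an unadjusted p of 0.05 the counts were 0, 2 and 1 genes, against 5.13%, 11.9% and 11.7% of all genes. At 24 h 1 gene passed, the complex IV isoform Cox6a2, against 6.78% of all genes, and 8 of 83 had an unadjusted p under 0.05 against 29.4% of all genes.

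The differences were small. The median log2 difference of the 83 genes was -0.05 at 6 h, -0.01 at 12 h, -0.02 at 24 h and 0.04 at 48 h, beside -0.01, -0.03, -0.04 and -0.02 over all genes. The sign of the medians at 12 h and 24 h depended on scaling, since centring each array on its median gave 0.03 at both times. At 48 h 59 of 83 genes lay above 0 (69 after median centring and 56 after centring on housekeeping genes), against 8743 of all 19937 as reported, and no single gene of the 83 passed. The 95% interval of the difference lay within 0.5 log2 units of 0 for 82 of 83 genes at 6 h, 79 at 12 h, 81 at 24 h and 83 at 48 h. Over all genes 89.8%, 84.4%, 79.8% and 87.3% met that bound.

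**Figure D1:**
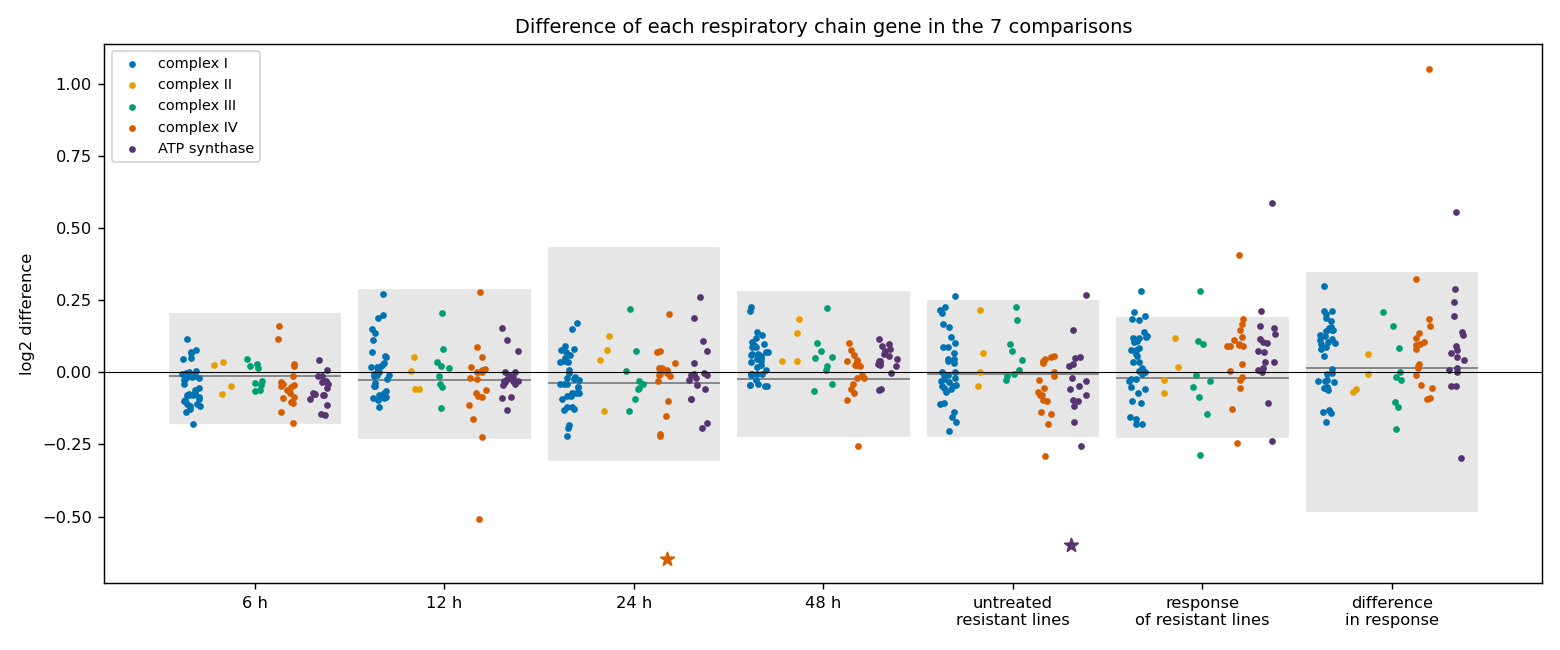
Log2 difference of each of the 83 genes (points, coloured by complex) in the 7 comparisons; stars mark genes with an adjusted p under 0.05, the grey band holds the middle 90% of all 19937 genes and the grey line is their median. Most points sit inside the band, and the 2 stars are Cox6a2 at 24 h (-0.65) and Atp5md in the untreated resistant lines (-0.60).

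Complex I takes up electrons from NADH, and its 35 genes had a median difference of -0.06 at 6 h, -0.04 at 24 h and 0.05 at 48 h. Ndufs1, an iron-sulfur subunit of the matrix arm, stood at 10.89 ± 0.29 (SD, n = 5) at 0 h and 11.04 ± 0.09 (SD, n = 5) at 24 h. Ndufv1, the subunit that binds NADH, stood at 11.40 ± 0.16 (SD, n = 5) at 0 h and 11.31 ± 0.14 (SD, n = 5) at 24 h. Both differences were smaller than the spread between the 0 h arrays. The smallest p of the complex at 24 h belonged to Ndufs8, another iron-sulfur subunit, at -0.18 (SE 0.06, adjusted p = 0.06), to Ndufa4l2, a relative of Ndufa4, at -0.22 (adjusted p = 0.0632), and to Ndufb11, of the membrane arm, at -0.19 (adjusted p = 0.0749). At the other times the smallest p values within the complex came from Ndufv3 (-0.18), Ndufb11 (-0.13) and Ndufb6 (-0.14) at 6 h, from Ndufb10 (0.27) and the acyl carrier gene Ndufab1 (0.11) at 12 h, and from Ndufab1 (0.12) and Ndufb3 (0.23) at 48 h. None of these 7 differences passed, and the adjusted p was at least 0.437.

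Complex II is succinate dehydrogenase, which also acts in the citric acid cycle, and all 4 of its genes were measured. At 24 h the flavoprotein gene Sdha differed by 0.04 (95% interval -0.13 to 0.22) and the iron-sulfur gene Sdhb by 0.08 (95% interval -0.14 to 0.30). The membrane anchor genes stood at -0.13 (Sdhc, 95% interval -0.30 to 0.03) and 0.13 (Sdhd, 95% interval -0.13 to 0.38). In complex III, which passes electrons to cytochrome c, Cyc1 differed by -0.06 (95% interval -0.28 to 0.17) and the Rieske protein gene Uqcrfs1 by -0.04 (95% interval -0.27 to 0.19). The core genes Uqcrc1 and Uqcrc2 stood at -0.13 (95% interval -0.29 to 0.02) and 0.01 (95% interval -0.12 to 0.13). None of these 8 intervals left out 0. Uqcr10, a small subunit of complex III, had one of the smaller p values at 12 h (0.21, adjusted p = 0.482) and at 48 h (0.22, adjusted p = 0.43).

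The catalytic core of the ATP synthase is built from the alpha subunit, encoded by Atp5a1, and the beta subunit, encoded by Atp5b. Atp5a1 stood at 13.06 ± 0.19 (SD, n = 5) at 0 h and 13.01 ± 0.04 (SD, n = 5) at 24 h, a difference of -0.04 (95% interval -0.20 to 0.11). Atp5b stood at 13.78 ± 0.05 (SD, n = 5) and 13.77 ± 0.06 (SD, n = 5), a difference of -0.01 (95% interval -0.12 to 0.11). Signals this high lie near the top of the array's range, where differences may be compressed. The genes of the ATP synthase with the smallest p at 24 h were Atp5g2, a gene for the membrane ring, at -0.17 (adjusted p = 0.0802), and Atp5k, of the membrane part, at 0.26 (adjusted p = 0.119). At 6 h they were Atp5c1 (-0.15) and Atp5h (-0.15), with adjusted p of 0.99 and 0.996, and at 12 h Atp5g1, another gene for the membrane ring, stood at 0.15 (adjusted p = 0.464).

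Complex IV held the gene that passed at 24 h. Cox6a2, the heart and muscle isoform of a nuclear subunit, stood at 8.45, 8.37, 9.36, 8.94 and 8.97 on the 0 h arrays numbered 1 to 5. At 24 h it stood at 8.27, 8.06, 8.16, 8.25 and 8.12. The groups did not overlap, although the arrays numbered 1 and 2 were already low at 0 h. It fell by 0.65 on the log2 scale (1.57-fold, SE 0.17, 95% interval -0.99 to -0.30, adjusted p = 0.0264). Ndufa4l2 was the other gene without overlap at 24 h, so 2 of 83 genes were free of it against 4.57% of all genes. Ndufa4l2 stood at 6.66 to 6.85 at 0 h and 6.40 to 6.61 at 24 h, within the 4.87 to 7.58 of the T and NK cell markers, all 8 of which also lay below 0 at 24 h (median -0.19), so its signal was not shown to be above background.

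The course of Cox6a2 differed between the numbered arrays. At 6 h it stood at 8.53, 8.69, 8.68 and 8.67 on the arrays numbered 2 to 5, and at 12 h at 8.20, 8.41, 8.34 and 8.30. At 48 h it stood at 8.35, 8.36, 9.28, 8.93 and 9.07 on the arrays numbered 1 to 5, each within 0.11 of the 0 h array of its number. The differences from 0 h to 24 h were -0.18 and -0.31 for numbers 1 and 2, and -1.20, -0.69 and -0.86 for numbers 3, 4 and 5. The mean of the fibroblast list moved by 1.64 and 1.27 for numbers 1 and 2 and by 0.19, 0.54 and 0.51 for numbers 3, 4 and 5 over the same interval. With that mean in the fit Cox6a2 stood at -0.43 (adjusted p = 0.273), and Atp5g2 was the 1 gene that passed (-0.30, adjusted p = 0.0212). The call of Cox6a2 was also lost without the 0 h array numbered 3 (-0.51, adjusted p = 0.0748), without the 0 h array numbered 5 (-0.61, adjusted p = 0.0657), without the 24 h array numbered 2 (-0.62, adjusted p = 0.0576) and with the 0 h and 24 h arrays fitted alone (adjusted p = 0.1).

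**Figure D2:**
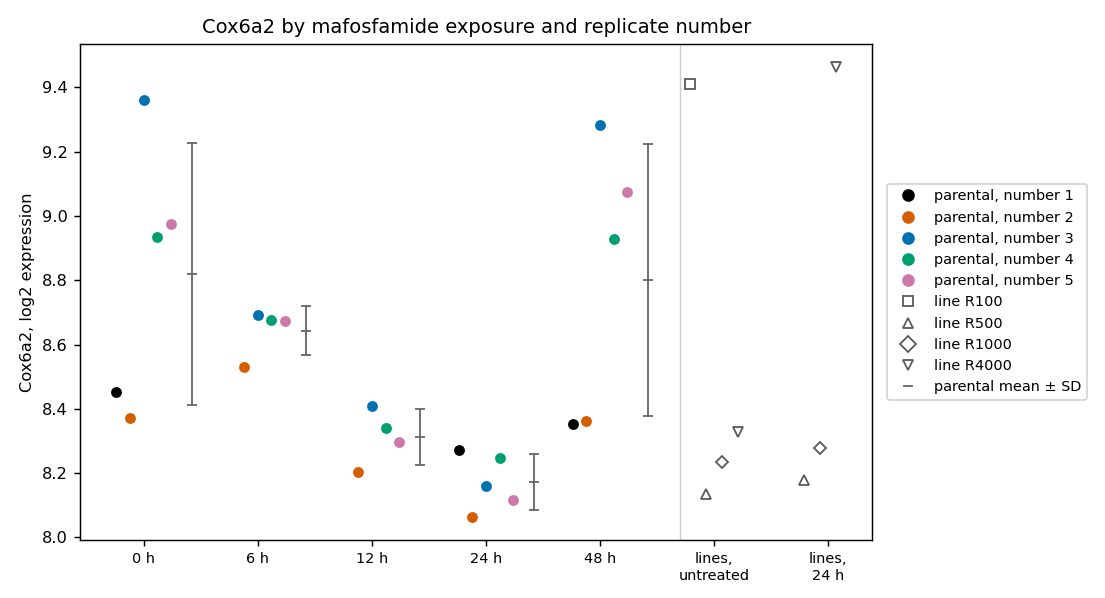
Cox6a2 log2 expression on each parental array by hours in mafosfamide, coloured by replicate number with mean ± SD beside each group, and on each resistant line (open symbols). Numbers 3 to 5 start near 9 at 0 h, sit near 8.2 at 24 h and are back near their 0 h level at 48 h, whereas numbers 1 and 2 stay between 8.06 and 8.53.

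Among the other isoforms, Cox6a1, the widely expressed partner of Cox6a2, stood at 0.20 at 24 h (95% interval -0.06 to 0.47). Cox4i1, its isoform Cox4i2, Cox6b1, Cox7a2, Cox7b, its testis form Cox7b2, Cox8a, Ndufa4 and the supercomplex factor Cox7a2l all lay within 0.10 of 0 at 24 h. Cox7a1 and Cox8b, both known as muscle forms, stood at -0.15 and -0.22, and Cox8b had the smallest p at 48 h (-0.26, adjusted p = 0.348). Cox8b stood at 7.58 on the 0 h array numbered 5 and at 6.98 to 7.14 on the other 0 h arrays. With 1 array left out its 48 h difference ran from -0.30 to -0.15. Its signals were at the level of the T and NK cell markers, which reached 7.58. Cox6b2, a testis form, stood at 0.16 at 6 h (adjusted p = 0.999) and had the smallest p at 12 h, at 0.28 (SE 0.09, adjusted p = 0.217). Its values at 12 h were 7.01, 7.24, 7.25 and 7.08 against 6.72 to 7.08 at 0 h, so the groups overlapped, and the signals of Cox6b2 and Cox7b2 did not exceed those of the T and NK cell markers.

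The numbers in the description labels were taken to pair the arrays at 0 h and 24 h, since the arrays of each number deviated from their group means together (correlation across genes 0.13 to 0.34 in 5 pairs). Arrays of unlike numbers were not compared in this way. With the number as a block, 12 of the 83 genes passed at 24 h, 4 higher and 8 lower, against 23.6% of all genes. The 4 rises were Atp5k (0.26, 1.20-fold, adjusted p = 0.00308), Uqcr11 of complex III (0.22, 1.16-fold, adjusted p = 0.0214), Cox6a1 (0.20, 1.15-fold, adjusted p = 0.0342) and Atp5l of the ATP synthase (0.19, 1.14-fold, adjusted p = 0.0275). Atp5k, Atp5l and Uqcr11 were higher at 24 h for all 5 numbers, and Cox6a1 for 4 of 5. Atp5l had 5 probe sets, and the one with the highest mean was read. On the others the difference from 0 h to 24 h was 0.13, 0.10, 0.03 and -0.14, so the sign was not shared by all. Atp5k stood at 9.79, 9.41, 9.34, 9.43 and 9.44 at 0 h and at 10.15, 9.70, 9.62, 9.64 and 9.59 at 24 h. Over the alternative fits its difference at 24 h ran from 0.11 to 0.34, with a limma adjusted p from 0.00308 to 0.647. Uqcr11 stood at 10.89, 10.58, 10.88, 10.83 and 10.67 and then at 11.12, 10.73, 11.05, 11.13 and 10.92. In Atp5k the array numbered 1 was the highest at both times, and in Uqcr11 the array numbered 2 was the lowest at both, so the groups overlapped although every pair rose. In Cox6a1 the number that did not rise was 1, with 12.28 at 0 h and 12.22 at 24 h.

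The 8 falls with the block were Cox6a2 (-0.65, adjusted p = 0.00181), Ndufa4l2 (-0.22, adjusted p = 0.0326), Cox8c (-0.21, adjusted p = 0.0257), Ndufb11 (-0.19, adjusted p = 0.0244), Ndufs8 (-0.18, adjusted p = 0.0249), Atp5g2 (-0.17, adjusted p = 0.0114), Sdhc (-0.13, adjusted p = 0.042) and the complex I gene Ndufa13 (-0.13, adjusted p = 0.0286). Cox6a2, Ndufa4l2, Ndufb11, Atp5g2, Sdhc and Ndufa13 were lower at 24 h for all 5 numbers, and Cox8c and Ndufs8 for 4 of 5. Atp5g2 stood at 13.30, 13.25, 13.14, 13.19 and 13.16 at 0 h and at 13.27, 13.03, 12.93, 12.96 and 12.98 at 24 h. On its other probe sets the difference from 0 h to 24 h was 0.05 and -0.22. Ndufb11 stood at 12.52, 12.48, 12.38, 12.40 and 12.36 and then at 12.48, 12.33, 12.18, 12.03 and 12.15. The array numbered 1 moved least in both genes. Sdhc stood at 11.19, 11.53, 11.52, 11.55 and 11.48 and then at 11.13, 11.32, 11.42, 11.34 and 11.40, with the array numbered 1 the lowest at both times. Apart from Cox6a2, each of the 12 genes differed by at most 1.20-fold. Ndufa4l2 lies within the signal range of the T and NK cell markers, whose highest value was 7.58. Cox8c (7.12 to 7.66 at 0 h and 24 h) passed that value only on the 0 h arrays numbered 2 and 5. Neither gene is shown to be above background, and the markers shifted by a like amount. Counting Ndufa4l2 by its name in complex I, although its relative Ndufa4 was counted in complex IV, complex I gave 4 falls, complex II 1 fall, complex III 1 rise, complex IV 1 rise and 2 falls and the ATP synthase 2 rises and 1 fall. At 6 h, where the numbers were also taken to pair the arrays, none of the 83 genes passed with the block, against 0.311% of all genes. At 12 h and 48 h a pair of arrays fell short of a correlation of 0.1, and the block gave Uqcr10 of complex III (0.26, adjusted p = 0.0353) and Cox6a2 (-0.57, adjusted p = 0.0237) at 12 h, against 3.55% of all genes, and Uqcr10 (0.22, adjusted p = 0.046) at 48 h, against 3.28%.

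The promoters of these genes were read because members of 1 complex moved in opposite directions. Windows from 250 bases before to 50 after the start were found for 67 of the 83 genes in a RefSeq table of build GRCm38.p6, and the first window of each gene was searched on both strands. The letters GCGCATGCG, the core bound by NRF1, an activator of many respiratory genes, stood in 8 of 67 windows (11.9%) against 1.81% of 27025 windows of all genes. The ETS and GABP core CCGGAAG stood in 16 windows (23.9%, against 9.12% of all). AAGATGGCG, read by YY1, stood in 6 (8.96%, against 1.49%), the estrogen-related receptor element AAGGTCA in 7 (10.4%, against 4.66%), the E-box CACGTG in 6 (8.96%, against 7.24%), the Sp1 box GGGCGG in 28 (41.8%, against 35.9%) and the CREB site TGACGTCA in 4 (5.97%, against 1.88%). At least 1 of NRF1, ETS and YY1 was present in 26 windows (38.8%, against 11.8% of all).

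The 4 genes that rose at 24 h with the block, Atp5k, Uqcr11, Cox6a1 and Atp5l, were also the 4 genes of the 67 whose window held both the NRF1 and the ETS letters, which was seen after their values were known. Of the 4 genes with the NRF1 letters but without the ETS letters, Atp5g2 fell and Ndufa8, Ndufa11 and Uqcrc1 were not called. Over all measured genes with a window, 75 held both letters and 9 of them (12%) were called higher at 24 h with the block, against 12.1% of the 15613 genes with a window. The share called lower was 2.67% against 11.8%. Atp5l had 5 probe sets and Atp5g2 had 3, and on another probe set of each the sign at 24 h was opposite (-0.14 for Atp5l, 0.05 for Atp5g2). Such probe sets may also match other copies of the sequence, so the locus that gave the signal is uncertain for both genes. The 250 bases before the start of Cox6a1 and Atp5l, which rose, and of Atp5g2, which fell, are shown here from 5′ to 3′ on the strand of the gene, with every match of the 7 motifs in capitals.
Cox6a1, chr5:115348959-115349208, minus strand: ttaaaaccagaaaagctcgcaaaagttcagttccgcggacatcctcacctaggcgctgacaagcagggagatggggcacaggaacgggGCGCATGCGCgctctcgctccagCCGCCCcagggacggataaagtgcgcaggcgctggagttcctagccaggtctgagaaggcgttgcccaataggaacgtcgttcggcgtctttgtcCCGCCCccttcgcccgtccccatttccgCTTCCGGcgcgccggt
Atp5l, chr9:44920743-44920992, minus strand: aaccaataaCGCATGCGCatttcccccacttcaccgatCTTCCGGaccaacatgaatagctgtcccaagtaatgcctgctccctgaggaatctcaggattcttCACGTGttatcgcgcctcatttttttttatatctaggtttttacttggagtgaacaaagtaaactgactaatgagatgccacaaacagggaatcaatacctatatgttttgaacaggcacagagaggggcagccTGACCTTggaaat
Atp5g2, chr15:102671048-102671297, minus strand: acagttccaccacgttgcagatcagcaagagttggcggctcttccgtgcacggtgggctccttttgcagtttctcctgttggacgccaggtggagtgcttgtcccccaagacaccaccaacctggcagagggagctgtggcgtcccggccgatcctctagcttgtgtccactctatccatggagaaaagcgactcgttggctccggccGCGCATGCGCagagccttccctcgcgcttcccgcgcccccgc
The capitals GCGCATGCGC in Cox6a1 and Atp5g2 hold the NRF1 core on both strands, and those at the left end of Atp5l hold it on 1 strand. In Cox6a1 the last capitals, CTTCCGG, are the ETS core read on the other strand, and in Atp5l the same letters follow the NRF1 core. The E-box CACGTG and the estrogen-related receptor element of Atp5l, as TGACCTT, follow further to the right. The capitals CCGCCC in Cox6a1 are Sp1 boxes on the other strand.

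To determine whether resistance went with other levels of these genes in the absence of drug, the 4 untreated lines were set against the 5 parental arrays of 0 h. In the limma fit 1 of 83 genes passed, Atp5md, against 0.0752% of all genes, and 10 had an unadjusted p under 0.05 against 7.1% of all genes. The median difference of the 83 genes was -0.01 (0.02 after median centring), with 38 above 0, and 80 of 83 intervals lay within 0.5 log2 units of 0 against 84.4% over all genes. By complex the median was -0.01 for complex I, 0.03 for complex II, 0.04 for complex III, -0.06 for complex IV and -0.05 for the ATP synthase.

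Atp5md, also called Usmg5, encodes a small membrane subunit of the ATP synthase that is known to help its dimers form. It stood at 13.02, 13.17, 12.99, 12.92 and 12.86 in parental cells at 0 h and at 12.43, 12.26, 12.44 and 12.46 in untreated R100, R500, R1000 and R4000. All 4 lines lay below the lowest of the 23 parental arrays, 12.81. The lines were lower by 1.51-fold (log2 difference -0.60, SE 0.09, 95% interval -0.79 to -0.41, adjusted p = 0.0406). Under 15 alternatives the difference kept its sign, between -0.63 and -0.48, and the adjusted p ran from 0.00648 to 0.235. The call was lost after median centring (adjusted p = 0.0938), with the mean of all its probe sets (0.0871), with the fibroblast mean in the fit (0.0867) and without any 1 of the parental arrays numbered 1, 3 or 4 or of the 4 lines (0.0533 to 0.235).

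After 24 h in mafosfamide Atp5md stood at 13.00 in R500, 12.93 in R1000 and 13.00 in R4000, inside the parental range. The differences within the lines were 0.74, 0.49 and 0.54, with a mean of 0.59 (SE 0.11, 95% interval 0.34 to 0.83, adjusted p = 0.151). With the parental replicate number as a block the adjusted p was 0.0313, and with array weights 0.00339. In parental cells the difference from 0 h to 24 h was 0.03 (95% interval -0.13 to 0.20), and the difference between both responses was 0.56 (SE 0.14, adjusted p = 0.338). The untreated values of R500, R1000 and R4000 enter both comparisons of the lines, so the low untreated and the higher treated values are not independent.

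Atp5md had 3 probe sets, and the probe sets of 1 gene may also match other copies of its sequence, so the locus that gave the signal is uncertain. The untreated lines lay at 12.18 to 12.37 on the second probe set and at 10.78 to 10.82 on the third, below all 23 parental arrays on both (lowest 12.53 and 10.83). The differences from parental 0 h cells were -0.40 and -0.44, and those from untreated to treated lines 0.45 and 0.37. On the third probe set the gap to the lowest parental array was small beside the 0 h spread of 0.24 (SD, n = 5). The 250 bases before the start of Atp5md held 1 match of the 7 motifs, the Sp1 box, shown in capitals. The ETS letters also stood in its searched window, which runs to 50 bases after the start.
Atp5md, chr19:47090648-47090897, minus strand: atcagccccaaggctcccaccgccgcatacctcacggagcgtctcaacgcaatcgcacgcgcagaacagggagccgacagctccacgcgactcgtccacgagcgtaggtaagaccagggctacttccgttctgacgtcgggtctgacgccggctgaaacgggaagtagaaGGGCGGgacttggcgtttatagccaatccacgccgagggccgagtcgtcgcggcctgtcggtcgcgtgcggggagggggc

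**Figure D3:**
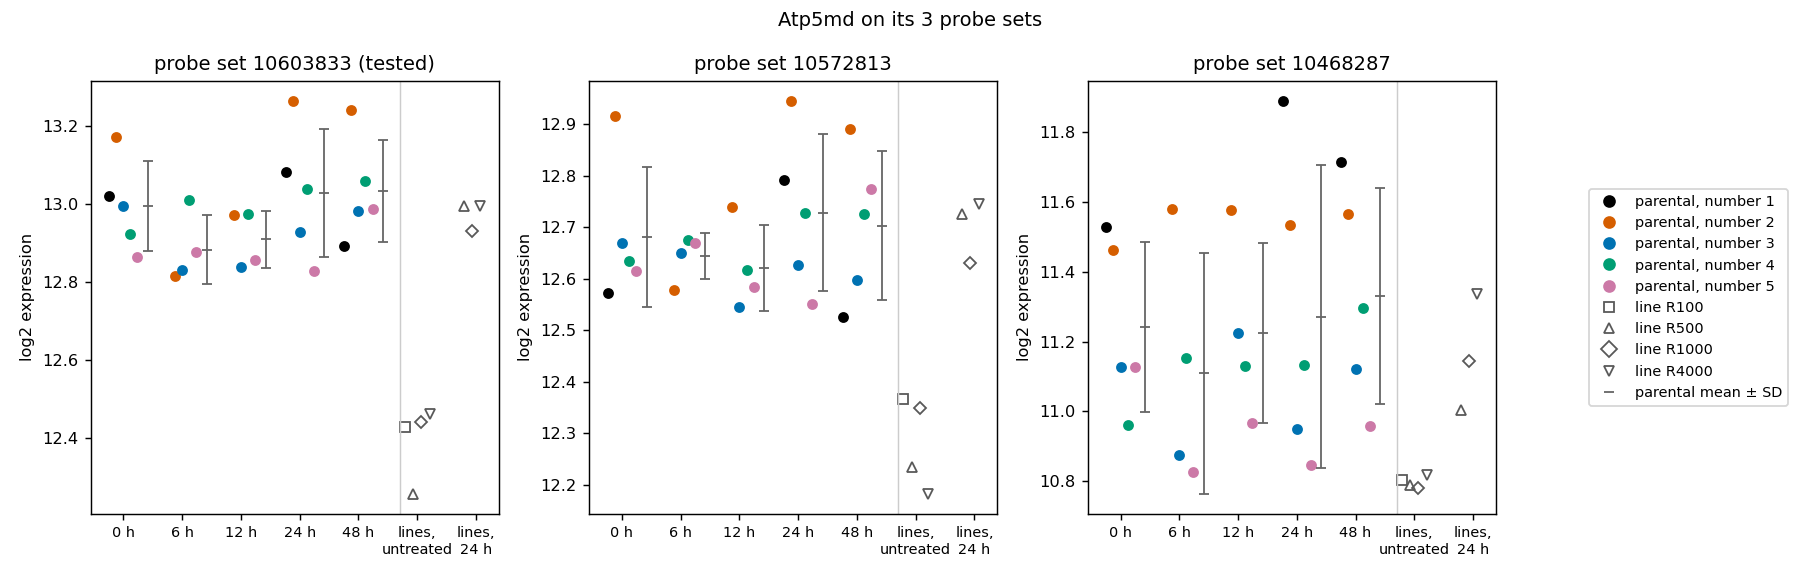
Log2 expression of Atp5md on its 3 probe sets by hours in mafosfamide for parental arrays (coloured by replicate number, mean ± SD beside each group) and for the 4 lines, untreated or treated for 24 h (open symbols). On each probe set the 4 untreated lines sit below every parental array, and the treated lines sit within the parental range.

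The members with the next smallest p in the untreated lines were Atp5g2 (-0.25, adjusted p = 0.456), Ndufb11 (-0.20, adjusted p = 0.556), Atp5l (0.27, adjusted p = 0.574), the cytochrome c1 gene Cyc1 (0.23, adjusted p = 0.6) and the complex I gene Ndufs6 (0.22, adjusted p = 0.637). Atp5g2 stood at 12.90, 12.84, 12.98 and 13.11 in R100, R500, R1000 and R4000 against 13.14 to 13.30 in parental cells at 0 h. Ndufb11 stood at 12.20, 12.13, 12.26 and 12.30 against 12.36 to 12.52. Both were without overlap, as were Atp5md and the complex I gene Ndufa5, which was higher at 9.61 to 9.73 against 9.19 to 9.59. That made 4 of 83 genes, 3 lower and 1 higher, against 3.65% of all genes.

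Cox6a2 divided the lines. It stood at 9.41 in untreated R100 and at 8.14, 8.24 and 8.33 in R500, R1000 and R4000. After 24 h in drug it stood at 8.18 in R500, 8.28 in R1000 and 9.46 in R4000. The line R4000 differed by 1.14 on the log2 scale and the other lines by 0.04 each, on 1 array per condition, so no test of a single line is possible. The difference in response between resistant and parental cells was 1.05 for Cox6a2 (SE 0.30, adjusted p = 0.338), and 0.69 without R4000 (adjusted p = 0.998).

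In the response of the resistant lines to 24 h of drug none of the 83 genes passed in the limma fit, against 0.0301% of all genes, and 6 had an unadjusted p under 0.05 against 2.9% of all genes. After Atp5md the smallest p belonged to Uqcrh, the hinge protein of complex III (-0.29), Ndufv2 (0.19), Ndufb6 (0.28), Ndufb2 (-0.18) and Cox4i1 (0.18), with an adjusted p that rounds to 1. The median was 0.06, beside -0.02 over all genes. Above 0 lay 54 of 83 genes (47 after centring on housekeeping genes), against 8604 of all 19937. Of the ATP synthase 15 of 17 genes lay above 0. These counts rest on 1 pair of arrays in each line and were not tested. Of the 83 intervals 73 lay within 0.5 log2 units of 0, against 81.2% over all genes. For the difference in response none of 83 genes passed, against 0% of all genes, and 4 had an unadjusted p under 0.05 against 7.83% of all genes. These were Atp5md, Cox6a2, Atp5g2 (0.29) and Ndufb11 (0.30), and the next were Cox8c (0.32) and Cox4i1 (0.19). The intervals of this difference were wide, with 64 of 83 within 0.5 log2 units of 0 against 51.5% over all genes.

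A ranking by covariance was made over all probe sets, once with the order parental 0 h, R100, R500, R1000, R4000 and once with the order of the 5 parental times, and 1000 probe sets were taken at each end. Of the 107 probe sets of the 83 genes, 1 stood at an end, against 2.88% of all probe sets at each end. It was the probe set of Cox6a2, at the low end of the order of resistance (rank 214 from the end). No probe set of the respiratory chain stood at either end of the order of time.

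Many of these genes differed between the replicate numbers of the parental arrays. The comparison was added after the data were seen, as a moderated F test in limma of the 5 numbers, with time in the fit, over 23 arrays. It took in the arrays of 12 h and 48 h, where the numbers were not taken to pair the arrays. It called 57 of 83 genes, against 32.2% of all genes. Bright genes are called more often, so the members with a mean of at least 10 were also set against all genes as bright, and 45 of 66 passed against 47.4%. By complex it called 25 of 35 genes of complex I, 4 of 4 of complex II, 7 of 9 of complex III, 10 of 18 of complex IV and 11 of 17 of the ATP synthase.

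For most of these genes arrays numbered 2 were low and arrays numbered 1 high. With time in the fit the median deviation of the 83 genes from the mean of the numbers was 0.11 for number 1, -0.09 for number 2, 0.01 for number 3, 0.04 for number 4 and -0.04 for number 5. After median centring it was 0.14 for number 1 and -0.14 for number 2, and after centring on housekeeping genes 0.13 and -0.12. Number 2 gave the lowest deviation for 47 of 83 genes, against 4008 of all 19937, and number 1 the highest for 50 of 83, against 5942 of all. Over all genes the median deviation was 0.01 for number 1 and 0.01 for number 2. Without the arrays numbered 2, 19 genes passed against 14.3% of all genes. With the arrays numbered 3 to 5 alone 3 genes passed against 4.29% of all genes.

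**Figure D4:**
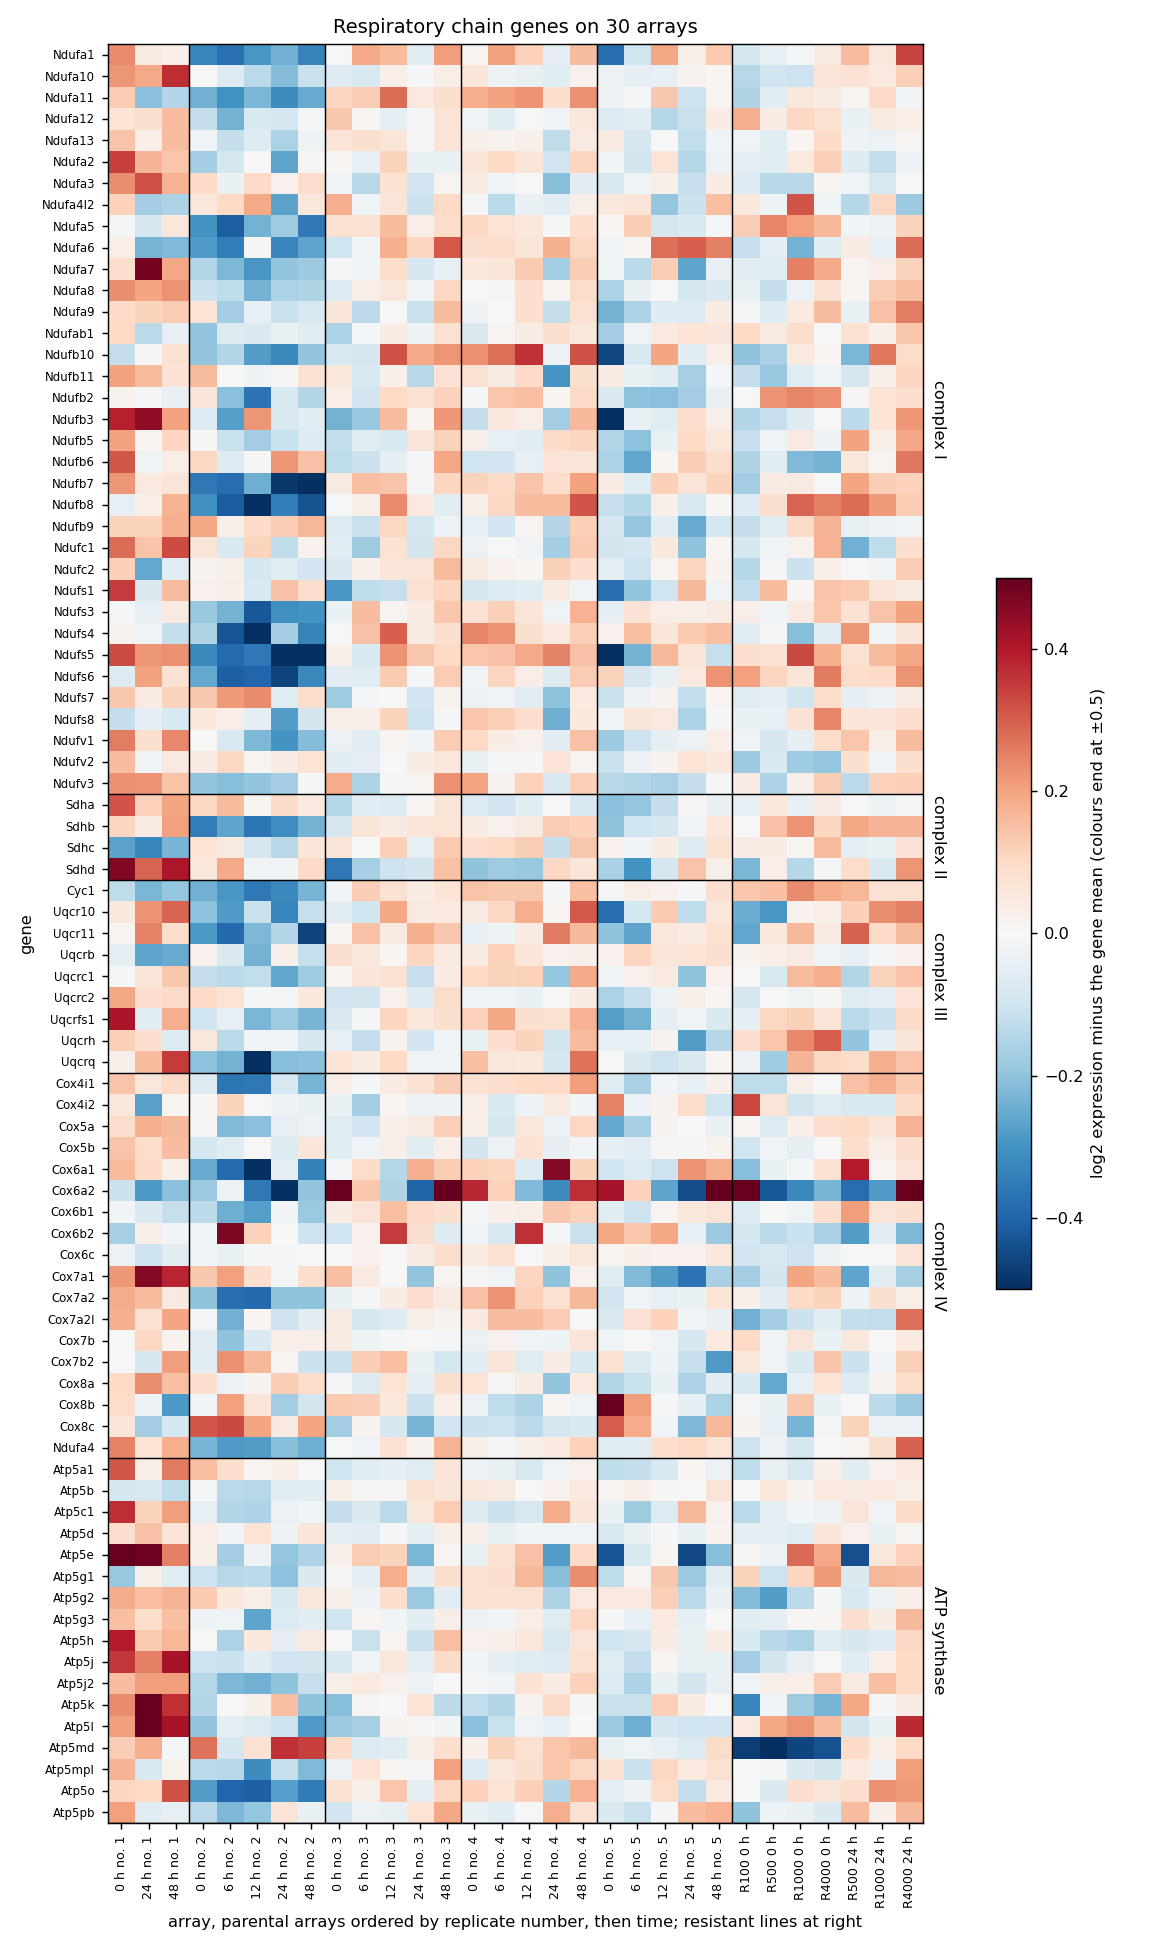
Log2 expression of each of the 83 genes (rows, grouped by complex) on the 30 arrays (columns), as the deviation from the gene's mean over all arrays; parental arrays are ordered by replicate number and then time, with the resistant lines at the right. Many rows are blue across all arrays numbered 2, and rows of the ATP synthase are red on arrays numbered 1; Atp5md is blue in the 4 untreated lines and Cox6a2 varies in blocks of its own.

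In the gene with the smallest p of each complex the arrays numbered 2 lay below all other parental arrays. Ndufb7 of complex I lay between 9.82 and 10.14 on the 5 arrays numbered 2 and between 10.32 and 10.60 on the other 18 parental arrays. Sdhb lay between 10.85 and 10.97 on arrays numbered 2 and between 11.01 and 11.41 on the others. Cyc1 lay between 11.65 and 11.88 on arrays numbered 1 and 2 and between 11.99 and 12.16 on arrays numbered 3 to 5. In each of these genes the ranges did not overlap, at any time in drug, and in Cyc1 number 1 was low as well.

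Cox7a2 of complex IV lay between 11.07 and 11.26 on arrays numbered 2 and between 11.36 and 11.69 on the others. Ndufa4 lay between 11.50 and 11.57 on arrays numbered 2 and between 11.72 and 12.03 on the others. Atp5o, a stalk gene of the ATP synthase, lay between 11.53 and 11.66 on arrays numbered 2 and between 11.79 and 12.25 on the others. Arrays numbered 2 were again apart from the rest in all 3 genes. Arrays numbered 1 stood apart in 2 other genes: Atp5l was high there, at 11.08 to 11.49 against 10.59 to 10.89, and Sdhc was low, at 11.13 to 11.23 against 11.32 to 11.60.

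The mean of the 17 ATP synthase genes lay between 12.45 and 12.49 on the arrays numbered 1 and between 12.17 and 12.37 on all other parental arrays. The mean of the 9 complex III genes lay between 11.41 and 11.51 on arrays numbered 2, and on the others between 11.50 and 11.78, so that they met at the edge. Other measures moved with the numbers too. The array median was typically 7.37 on arrays numbered 2 and 7.29 on those numbered 1 (median over their arrays). The mean of the B-cell markers lay between 12.42 and 12.56 on arrays numbered 2, between 12.26 and 12.30 on those numbered 1 and between 11.62 and 12.06 on those numbered 3 to 5. The B-cell surface gene Ms4a1 lay between 11.99 and 12.41 on arrays numbered 2, between 11.33 and 11.70 on those numbered 1 and between 6.88 and 10.04 on those numbered 3 to 5. Their part in the differences between numbers was not tested, and culture, RNA and array cannot be told apart, since the labels give 1 number for all.

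**Figure D5:**
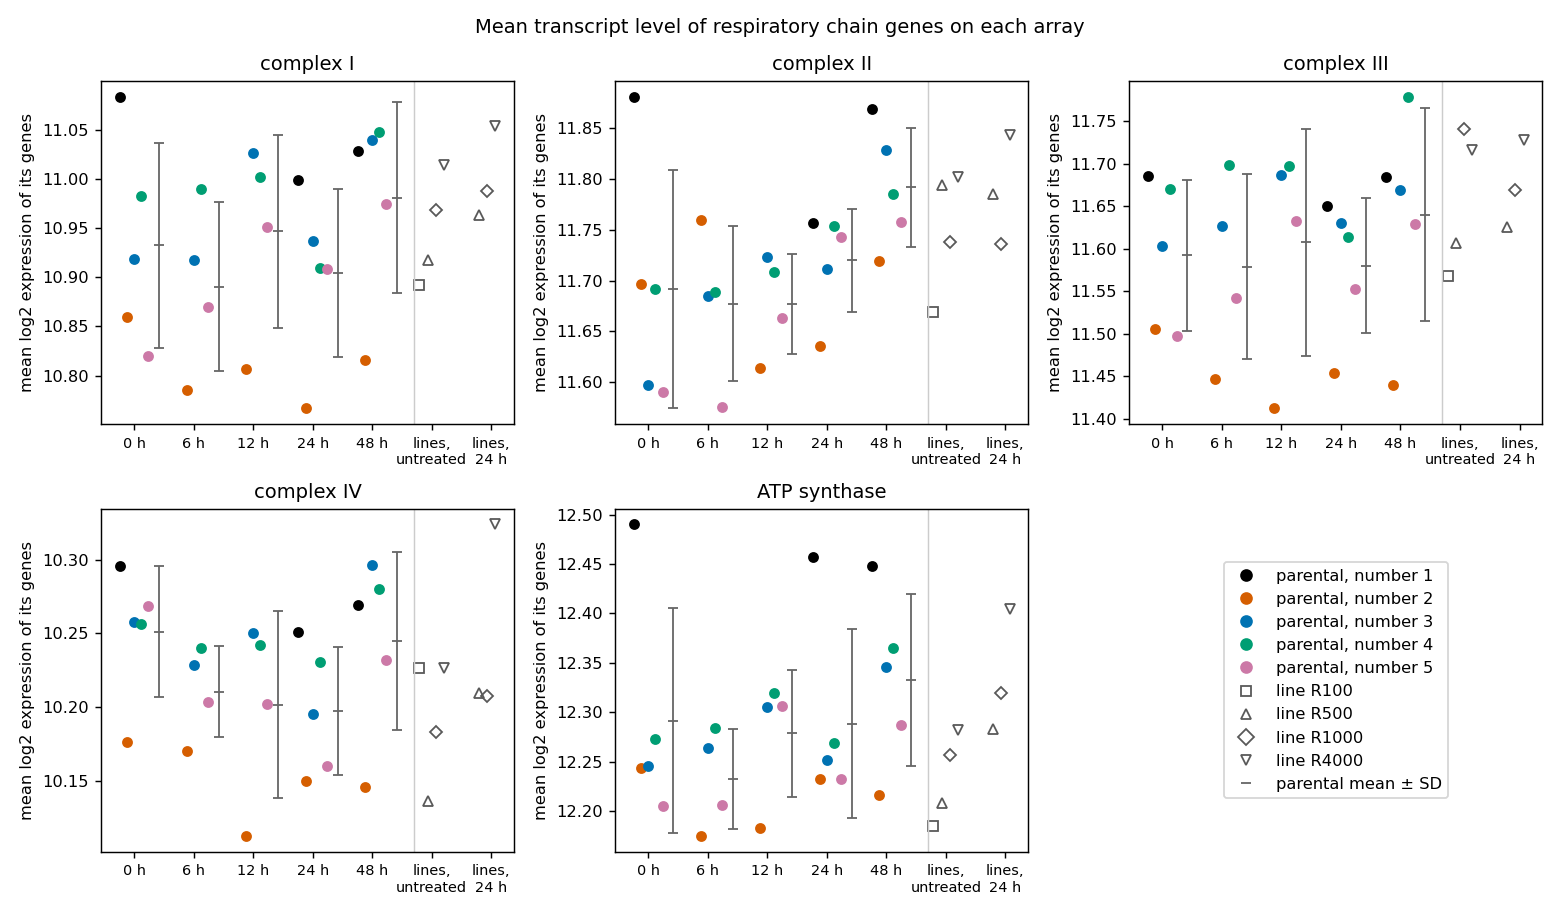
Mean log2 expression of the genes of each complex on every parental array by hours in mafosfamide (coloured by replicate number, mean ± SD beside each group) and on the resistant lines (open symbols); the vertical scale differs between panels and does not start at 0. Within a panel the colours keep much of their order across times, with number 2 low in complexes I, III and IV and number 1 high in the ATP synthase, and each treated parental group overlaps the 0 h group.

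The same design was applied to genes around the respiratory chain, where the counts at 24 h stand beside the 6.78% of all genes called at that time. Of 43 measured assembly factors 1 was called in any of the 7 comparisons, the complex II factor Sdhaf2, which rose at 24 h by 0.32 on the log2 scale (adjusted p = 0.0363). Of 18 measured citric acid cycle genes Idh2, a mitochondrial isocitrate dehydrogenase, rose at 24 h by 0.65 (adjusted p = 0.00209) and Idh3g, a subunit of another, fell by 0.20 (adjusted p = 0.0321). Of 21 measured glycolytic genes Ldhb, a lactate dehydrogenase subunit, rose at 24 h by 0.45 (adjusted p = 0.049). Of 23 measured carriers and cytochrome c genes Slc25a4, an ADP/ATP carrier, rose at 24 h by 0.33 (adjusted p = 0.037). None of the 20 measured regulators and none of the 2 measured mitochondrially encoded genes was called in any comparison.

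The medians of these lists at 24 h lay between 0.01 for the carriers and 0.09 for the assembly factors, beside -0.02 for the 83 subunit genes and -0.04 over all genes. In the untreated resistant lines they lay between 0.07 for the carriers and 0.14 for the glycolytic genes, beside -0.01 for the subunit genes. These lists were chosen with earlier results of the same data known, and their medians are descriptions. With the fibroblast mean in the fit all 5 calls were lost, at 0.51 for Idh2 (adjusted p = 0.0545), -0.19 for Idh3g (0.175), 0.29 for Ldhb (0.36), 0.35 for Sdhaf2 (0.121) and 0.30 for Slc25a4 (0.196), while the number of all genes called at 24 h went from 1351 to 528.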

How the data were processed

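RNA of 30 samples was hybridised to 1 array each. The deposited values are log2 expression per probe set, which the authors made from the scanned arrays with RMA (function justRMA of the package affy), that is with background correction, quantile normalization and summary over probes. The submitters' notes name the mouse build mm9, and no coordinates from it were used. Precision is set by the number of arrays. Every column was mapped to a sample.

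Probe sets were named from the platform annotation. A gene was read from its probe set with the highest mean, giving 19937 genes. Differences were tested with limma 3.58.1 (lmFit and eBayes, two-sided) in R 4.3.3 on all genes, with Benjamini-Hochberg adjustment and a threshold of 0.05. The fits held the 23 parental arrays, the 9 untreated arrays of parental cells and lines, or the 16 arrays at 0 h and 24 h of parental cells and of R500, R1000 and R4000, with line as a term. The tests were first run on simulated data with known changes.

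The genes of the respiratory chain and all gene lists were chosen with earlier results of these data known. Genes named in each comparison are up to 6 rises and 6 falls among those called, filled up to 6 by smallest p where fewer passed, and in the parental series the core subunits and the isoforms of complex IV. From the other lists up to 3 called genes are named. Genes without overlap, those named with the block or between the numbers, and those named for their promoters were chosen after their values were seen. The description numbers were taken to pair arrays where every pair of deviations from the group means correlated above 0.1, which held at 6 h (0.31 to 0.77) and 24 h (0.13 to 0.34). Alternatives were centring on the array median or on housekeeping genes, the mean of a gene's probe sets, genes with a mean of at least 6, array weights, the mean of the fibroblast list as a covariate, the replicate number as a block, the 2 groups alone and leaving out each array. Leaving out the arrays numbered 2, keeping numbers 3 to 5 alone, and the comparison of the numbers were added after the data were seen.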

Additional observations from a re-analysis of the deposited data

Results flagged for a closer look

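The mean log2 expression of the genes of each complex, and the levels of Cox6a2 and Atp5md, were screened for arrays far from the rest of their group. Of 35 groups screened 4 held such an array, where chance gives about 1 in 20. The mean of the ATP synthase genes was 12.49 on the 0 h array numbered 1, and the next highest array stood at 12.27. It was 12.46 on the 24 h array numbered 1, with the next highest again at 12.27. At 12 h the array numbered 2 was low, at 12.18, with the next lowest at 12.31. Cox6a2 stood at 8.53 on the 6 h array numbered 2, with the next lowest at 8.67, within a group that spanned little. The arrays numbered 1 and 2 thus gave all 4 cases, and they are the arrays that stood apart in the comparison of the replicate numbers.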

How the results depend on the processing

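Beside the values as reported, single-gene differences were followed over further settings for the genes called or with the smallest p in each comparison. Their differences kept their side of the threshold in 1137 settings, crossed to an adjusted p under 0.05 in 30 and lost it in 15. No direction was reversed among these genes. Over the 83 genes directions did change, since 31 lay above 0 at 24 h as reported and 53 after median centring. With the replicate number from the description labels as a block, 2 genes were called at 12 h, 12 at 24 h, 1 at 48 h and 1 in the response of the resistant lines. At 12 h and 48 h the lowest correlation of a pair was 0.08 and 0.07. The numbers in the sample titles run otherwise at 6 h and 12 h, and with them as a block 5 genes were called at 24 h. The block changed no other count of calls among the 83 genes. With array weights 1 gene was called at 12 h (Cox6b2), 4 at 24 h (Cox6a2, Atp5g2, Ndufb11 and Ndufs8) and 1 in the response of the lines (Atp5md). With the arrays numbered 3 to 5 alone 1 gene was called at 12 h, 9 at 24 h and 2 at 48 h. With the 0 h and 24 h arrays alone 0 were called at 24 h. In the untreated lines 0 genes were called with median centring, with the mean of all probe sets of a gene, and with the fibroblast mean as a covariate. Leaving out 1 array gave 0 to 4 genes at 24 h, 0 to 1 in the untreated lines and 50 to 57 between the replicate numbers. It gave 0 at 6 h, 12 h and 48 h, in the response and in its difference from parental cells. The 4 genes at 24 h came without the 0 h array numbered 1 (Atp5k, Cox6a2, Ndufs1 and Ndufs8). Between the replicate numbers 19 genes were called without the arrays numbered 2, and 3 genes with the arrays numbered 3 to 5 alone. Both fits held fewer arrays and also left out arrays that stood apart, and these cannot be told apart. The cause of the changes between settings was not tested. Over all genes and all settings the count of calls ran from 0 to 214 at 6 h (4 as reported), from 18 to 844 at 12 h (102), from 122 with the 2 groups alone to 4711 with the block at 24 h (1351), from 5 to 773 at 48 h (50), from 0 to 100 in the untreated lines (15), from 2 to 161 in the response of the lines (6) and from 0 to 128 in the difference (0). The 122 and the lowest counts at 12 h and 48 h came from the 2 groups alone. The highest counts at 6 h, 12 h and 48 h came from the arrays numbered 3 to 5 alone. Both fits held fewer arrays, and what the number of arrays did to the counts was not tested. Whether the largest signals, such as that of Atp5b, are compressed was not tested.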
